A study of Homo sapiens with 6 samples.

Results

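The 10 genes described here encode proteins that detect or edit double-stranded RNA in human cells and the adaptors that pass the signal on. They were chosen by name and role, by a rule that uses no measured value, though with earlier results of these data known. They make up 10 of the 58051 genes in the deposited table. The sensors are RIGI (older name DDX58), IFIH1, DHX58, TLR3, ZBP1 and EIF2AK2, the editing enzyme is ADAR, and the adaptors are MAVS, MYD88 and TICAM1. Of the 10, 9 had a mean of at least 0.5 FPKM (reads scaled to gene length and library depth) and entered the test, while ZBP1 did not.

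The libraries were made from total RNA of cells that the labels call NTera-2 (NT2), an embryonal carcinoma cell line. Titles divide the 6 libraries into 3 from cells with piR-36249 mimics, copies of a PIWI-interacting RNA meant to raise its level, and 3 from cells with a scramble, used as the control. For the mimic libraries the genotype field reads piR-36249 knockdown and the treatment field reads overexpression of mimics, so the labels disagree, and the groups below follow the titles. No dose, time after transfection or origin of the replicates is given in the sources used here, so the p-values reflect the spread among 6 libraries that may be technical repeats.

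Double-stranded RNA is a hallmark of viral replication and also forms from a cell's own repeats and mitochondrial transcripts. RIGI and IFIH1 (the protein MDA5) are helicases of the cytosol that bind it and signal through MAVS on mitochondria, and DHX58 (LGP2) is a related helicase without a signalling domain that tunes them. TLR3 reads it in endosomes and signals through TICAM1 (TRIF), whereas MYD88 is the adaptor of most other Toll-like receptors and of the interleukin 1 receptor. EIF2AK2 (PKR) is a kinase that stops translation by phosphorylating eIF2, ADAR edits adenosine to inosine and so keeps a cell's own RNA from being sensed, and ZBP1 binds left-handed RNA and can start necroptosis. Several of these genes are themselves induced by interferon through a promoter motif, the interferon-stimulated response element.

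Promoter sequence is shown first, for members that rose and for members that did not pass the test. RefSeq windows (GRCh38.p14) from 250 bases before to 50 after an annotated start were available for 8 of the 10 genes, in 10 windows. No window was available for DHX58, which rose, or for ZBP1. The windows were searched on both strands for the core of the response element, GAAA followed after any 2 bases by GAAA. It was found in the windows of IFIH1, MYD88, EIF2AK2 and TLR3, against 3.57% of the 35116 windows of all genes, or 4.38% of 27305 genes. The stretches below run 5′ to 3′ along the gene's strand, with the matched letters in capitals, and TTTC forms are the core on the other strand.
IFIH1, chr2:162318675-162318735, minus strand, core 21 to 12 bases before the start: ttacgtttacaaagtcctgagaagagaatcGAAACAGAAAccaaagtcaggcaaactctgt
IFIH1, chr2:162318798-162318873, minus strand, a pair of overlapping cores 159 to 144 bases before the start: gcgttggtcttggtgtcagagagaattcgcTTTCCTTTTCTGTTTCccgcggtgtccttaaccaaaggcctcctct
MYD88, chr3:38138570-38138639, plus strand, core 61 to 52 bases before the start: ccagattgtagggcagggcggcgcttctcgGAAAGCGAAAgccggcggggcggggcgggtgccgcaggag
EIF2AK2, chr2:37156971-37157016, minus strand, core from 6 bases before the start to base 4 of the transcript: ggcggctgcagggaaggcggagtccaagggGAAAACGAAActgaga
TLR3, chr4:186069122-186069165, plus strand, core from 4 bases before the start to base 6 of the transcript: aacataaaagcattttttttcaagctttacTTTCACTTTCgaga

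The windows of RIGI, MAVS, TICAM1 and the 3 of ADAR did not hold these letters, which says only that this spelling is not in those windows. One form of an NF-kB site, GGG followed after any 2 bases by TTTCC, was found on either strand in RIGI, IFIH1 and TICAM1. Its share was 1.91% of all windows and 2.33% of genes. In MYD88 and TLR3 the letters TTCNNNGAA, the core of a STAT binding site, occurred once and in 2 places, against 7.66% of all windows and 9.38% of genes. The match in MYD88 overlaps its response element core. Of the genes with the NF-kB form, RIGI and IFIH1 rose, and TICAM1 did not pass the test. Whether the form bears on these changes was not tested. The stretch of RIGI is given as an example, with the NF-kB form in capitals.
RIGI, chr9:32526233-32526302, minus strand, match 76 to 67 bases before the start: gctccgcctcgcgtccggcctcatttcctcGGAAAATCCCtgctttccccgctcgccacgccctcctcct

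Library depth, recovered from the steps of the low values, was between 48.0 and 62.7 M reads. Of 14 markers of embryonal carcinoma, 3 were above 1 FPKM in all libraries (LIN28B, DNMT3B and PODXL), and NANOG, SOX2, TDGF1, L1TD1 and SALL4 were at 0 in each. Of 12 endothelial markers 9 were above 1 FPKM in all libraries, with CDH5 at 86.4 to 127.5 FPKM, so the labelled cell type was not borne out by its defining markers in either group. Of the 9 tested endothelial markers 8 rose with mimic, beside 18.7% of all tested genes, while KDR, VWF and CLDN5 were under the filter. The endothelial list's summed level was 593.5 to 637.7 FPKM in scramble and 715.8 to 779.7 FPKM in mimic libraries. All 3 tested embryonal carcinoma markers rose as well (DNMT3B 0.58, LIN28B 0.33 and PODXL 0.26 on the log2 scale). That list's summed level was 260.0 to 306.5 FPKM in scramble and 326.3 to 370.0 FPKM in mimic libraries. PODXL lost its call in 5 of 17 alternatives (highest limma adjusted p 0.12) and LIN28B in 1 (0.062). Of the endothelial markers that rose, EGFL7 lost its call in 4 (highest 0.085) and TIE1 in 1 (0.050). Of 10 fibroblast markers 3 were tested, of which THY1 and FBN1 rose and LOX fell. FBN1 lost its call without a filter on low values (limma adjusted p = 0.075). COL1A1 and PDGFRB, under the filter here at no more than 0.412 FPKM, were higher with mimic in the authors' deposited table (log2 1.33 and 1.25). The 10 markers summed to 16.26 to 16.73 FPKM in scramble and 15.11 to 16.26 FPKM in mimic libraries. The most abundant of them was LOX, with up to 11.35 FPKM. Of 12 myeloid and lymphoid markers 0 exceeded 0.463 FPKM in any library, and PTPRC had at most 2 reads. The part of these markers in the results below was not tested, and in bulk RNA a change in cell makeup and a change in RNA per cell cannot be told apart.

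All 3 RIG-I-like receptors rose. With mimic they were higher by 44.2% for RIGI, 58.4% for DHX58 and 87.1% for IFIH1 in mean FPKM. Counting the other members too, 5 of the 9 tested genes rose, none fell and the other 4 missed the threshold, where 18.7% of all tested genes rose and 16.8% fell (35.5% called in all). Passing the test means an adjusted p under 0.05 from limma, with Benjamini-Hochberg adjustment over 12912 genes.

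RIGI (ENSG00000107201, chromosome 9, 32455705 to 32526324, minus strand, GRCh38) measured 18.7, 20.1 and 20.4 FPKM in mimic replicates 1 to 3 and 13.6, 15.4 and 12.04 FPKM in scramble replicates 1 to 3. The lowest mimic library lay above the highest scramble library. Its mean went from 13.7 ± 1.71 to 19.8 ± 0.924 FPKM (SD, n = 3), a log2 fold change of 0.50 (SE 0.082, limma adjusted p = 0.0027). These values rest on 2805 to 4777 reads per library, and RIGI was the most abundant of the 3 receptors in each library.

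IFIH1 (ENSG00000115267, chromosome 2, 162267079 to 162318703, minus strand) had the largest log2 fold change among the 9 tested members. It measured 4.88, 4.61 and 4.28 FPKM in mimic replicates 1 to 3 and 2.42, 2.54 and 2.40 FPKM in the scramble replicates. The scramble libraries lay within a narrow band and all mimic libraries were well above it. The mean went from 2.46 ± 0.0768 to 4.59 ± 0.301 FPKM, a log2 fold change of 0.69 (SE 0.057, limma adjusted p = 0.00013), which placed IFIH1 at percentile 99.0 of all tested genes. On the log2(FPKM + 1) scale used here changes of low genes are understated, and with voom on recovered reads the same gene gave 0.91.

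DHX58 (ENSG00000108771, chromosome 17, 42101404 to 42112733, minus strand) was the scarcest of the 3. Its mimic libraries held 2.103, 1.90 and 1.90 FPKM and its scramble libraries 1.29, 1.03 and 1.41 FPKM. The groups did not overlap, although the scramble libraries spread more widely than the mimic libraries. The mean went from 1.24 ± 0.190 to 1.97 ± 0.116 FPKM, a log2 fold change of 0.41 (SE 0.077, limma adjusted p = 0.0054) and of 0.67 with voom on recovered reads. Between 210 and 474 reads per library stand behind these values.

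**Figure D1:**
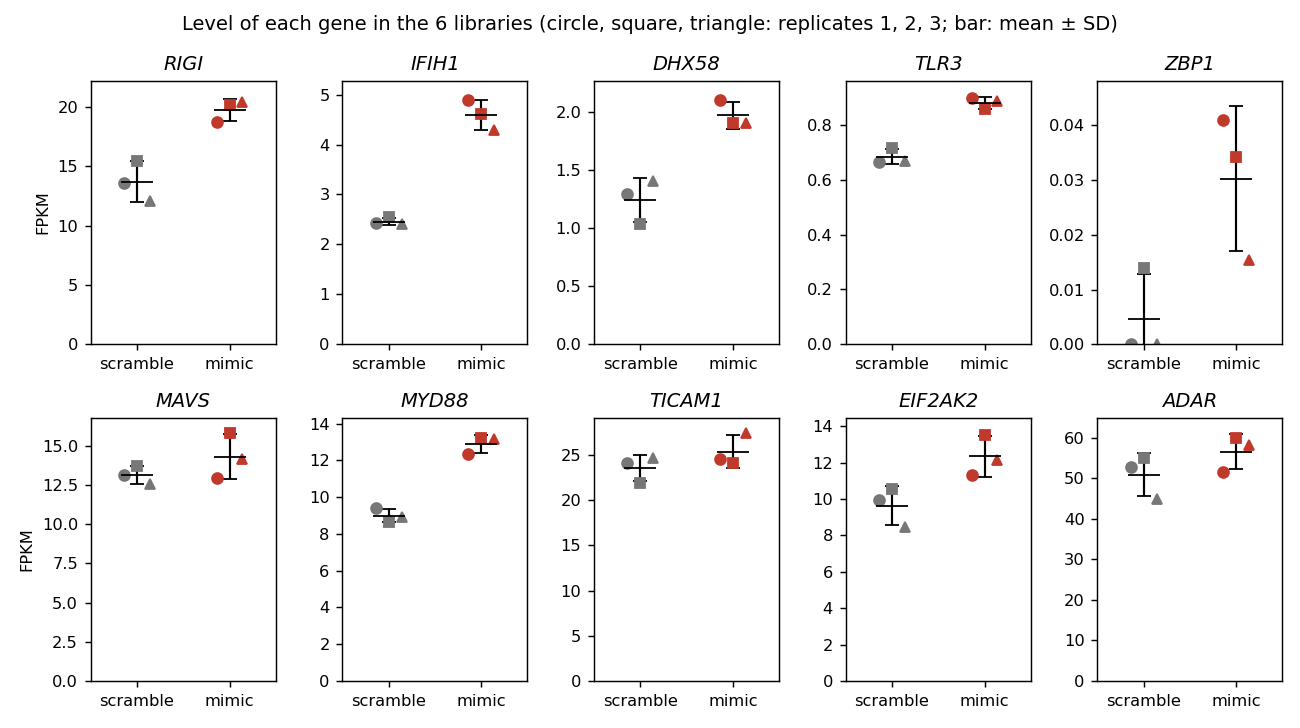
FPKM of the 10 genes (vertical axes, each from 0 and with its own range) in the 3 scramble and 3 mimic libraries. Points are libraries, marked by replicate number, and bars are mean ± SD. The 3 RIG-I-like receptors, TLR3, MYD88 and EIF2AK2 have all mimic points above all scramble points, whereas MAVS, TICAM1 and ADAR overlap.

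The endosomal receptor TLR3 (ENSG00000164342, chromosome 4, 186069152 to 186088069, plus strand) was low in every library. It measured 0.900, 0.858 and 0.886 FPKM with mimic and 0.666, 0.715 and 0.670 FPKM with scramble, on 241 to 355 reads. All mimic libraries were above all scramble libraries. The difference did not pass the test (log2 0.16, 95% interval 0.02 to 0.30, limma adjusted p = 0.075). It passed with voom on recovered reads (log2 0.37, adjusted p = 0.019), where 39.1% of genes were called, 21.0% higher and 18.2% lower, and without a variance trend (adjusted p = 0.023), and over all alternatives the adjusted p ranged from 0.019 to 0.18.

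ZBP1 (ENSG00000124256, chromosome 20, 57603846 to 57620576, minus strand) was close to the limit of detection. Mimic replicates 1 to 3 held 13, 10 and 4 reads, or 0.0410, 0.0342 and 0.0154 FPKM, and scramble replicates 1 to 3 held 0, 4 and 0 reads. The lowest mimic library and the highest scramble library had the same number of reads, and the mimic library was the shallower. Pooled over libraries, 27 reads stood against 4, a ratio of 7.10 after scaling to depth, with an exact interval of 2.47 to 27.9 that covers counting error only and treats reads as independent. A library at 0 allows up to 3 reads, or 0.0104 FPKM in scramble replicate 3. The test without a filter on low values gave ZBP1 a log2 difference of 0.04 and an adjusted p of 0.21, beside 11.0% of genes called in that fit, 5.80% higher and 5.22% lower.

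The adaptors divided: MYD88 rose, and neither MAVS nor TICAM1 passed the test. MYD88 (ENSG00000172936, chromosome 3, 38138478 to 38143022, plus strand) measured 12.3, 13.2 and 13.1 FPKM with mimic and 9.38, 8.67 and 8.91 FPKM with scramble. The gap between the groups was wider than the spread within either. Its mean went from 8.99 ± 0.363 to 12.9 ± 0.494 FPKM, a ratio of 1.44 and a log2 fold change of 0.48 (SE 0.048, limma adjusted p = 0.00029).

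MAVS (ENSG00000088888, chromosome 20, 3846799 to 3876123, plus strand), through which RIGI and IFIH1 signal, measured 12.9, 15.8 and 14.1 FPKM with mimic and 13.1, 13.7 and 12.5 FPKM with scramble. Mimic replicate 1 lay below scramble replicates 1 and 2, and the groups overlapped. The log2 difference was 0.11 (95% interval -0.05 to 0.28, limma adjusted p = 0.26). TICAM1 (ENSG00000127666, chromosome 19, 4815932 to 4831704, minus strand), the adaptor of TLR3, measured 24.5, 24.1 and 27.4 FPKM with mimic and 24.1, 21.9 and 24.6 FPKM with scramble. Its groups overlapped as well, with a log2 difference of 0.10 (95% interval -0.04 to 0.25, limma adjusted p = 0.25). Both intervals exclude a change as large as the 0.48 of MYD88, but not a smaller rise. MAVS had at least 7898 and TICAM1 at least 3101 reads in each library.

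The kinase EIF2AK2 rose, and the editing enzyme ADAR did not pass the test. EIF2AK2 (ENSG00000055332, chromosome 2, 37099210 to 37157065, minus strand) measured 11.3, 13.5 and 12.2 FPKM with mimic and 9.93, 10.5 and 8.43 FPKM with scramble. The groups did not overlap, yet mimic replicate 1 and scramble replicate 2 were close. Its mean went from 9.63 ± 1.08 to 12.3 ± 1.11 FPKM, a log2 fold change of 0.33 (SE 0.087, limma adjusted p = 0.022). The call was lost without mimic replicate 2 (log2 0.27, adjusted p = 0.062), without mimic replicate 3 (0.34, adjusted p = 0.058) and without a filter on low values (adjusted p = 0.091), and over all alternatives the adjusted p ranged from 0.0035 to 0.091. A gene on the opposite strand, GPATCH11, shares 35 exon bases with EIF2AK2, and a pseudogene on that strand, ARL14EPP1, shares 401, or 3.73% of its exon length, at no more than 0.0411 FPKM.

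ADAR (ENSG00000160710, chromosome 1, 154582057 to 154628013, minus strand) was the most abundant member. Its libraries held 51.5, 59.9 and 58.3 FPKM with mimic and 52.8, 54.8 and 44.9 FPKM with scramble. Scramble replicate 3 was the lowest library, and the remaining scramble libraries lay within or next to the mimic range. The log2 difference was 0.15 (95% interval -0.04 to 0.35, limma adjusted p = 0.20). ADAR makes a longer, interferon-induced protein and a shorter constitutive one from different starts, and a value per gene adds them up.

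Taking all members together, 6 of the 9 tested genes had every mimic library above every scramble library, against 26.0% of all tested genes. The log2 fold change was positive in 9 of 9, and it stayed positive for these 9 genes under the 17 alternatives wherever the gene was tested. Their median was 0.33, beside 0.0025 over all tested genes. Of the authors' deposited table of 401 genes, whose smallest absolute log2 fold change was 1.0005, 0 were members.

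**Figure D2:**
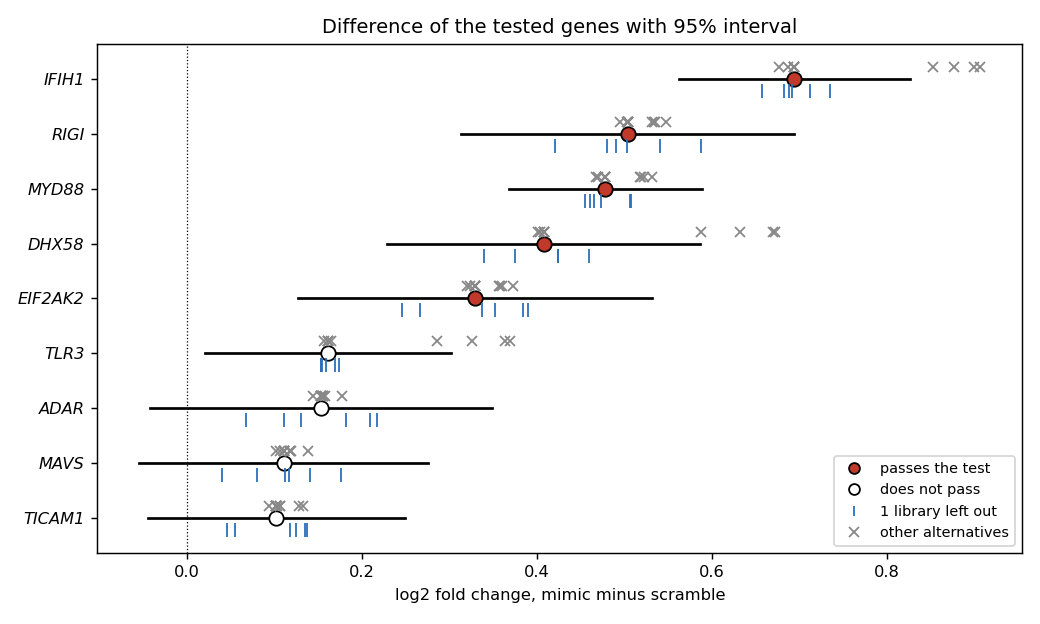
Log2 fold change of the 9 tested genes (horizontal axis, mimic minus scramble) with the 95% interval as a black line. Filled points pass the test, open points do not, blue ticks are fits with 1 library left out and grey crosses the other alternatives. IFIH1 is farthest to the right at 0.69, and the intervals of MAVS, TICAM1 and ADAR include 0.

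To ask whether members of like role changed by different amounts, 7 pairs were compared within libraries, as the difference between groups in the log2 ratio of (FPKM + 1). With 3 against 3 libraries the exact two-sided permutation test cannot go below p = 0.1, or 0.175 after adjustment over the 7 pairs, so no pair could pass. MYD88 stood at 0.954, 0.836 and 0.930 of MAVS in the mimic libraries and at 0.714, 0.632 and 0.711 in the scramble libraries. The log2 ratio was higher by 0.37 with mimic and the groups did not overlap (exact permutation p = 0.1, adjusted 0.175). MYD88 against TICAM1 gave 0.38 and EIF2AK2 against ADAR gave 0.18, again without overlap and at the same p.

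Among the receptors, the ratio of IFIH1 to RIGI was 0.261, 0.229 and 0.210 with mimic and 0.178, 0.165 and 0.199 with scramble. The log2 ratio differed by 0.19, with overlap on the log2(FPKM + 1) scale and none in plain FPKM (exact permutation p = 0.2, adjusted 0.28). IFIH1 against DHX58 differed by 0.29 (exact permutation p = 0.1, adjusted 0.175), with no overlap on that scale, but in plain FPKM scramble replicate 2 had the highest ratio of all libraries, 2.46. DHX58 against RIGI (-0.10, exact permutation p = 0.7) and TICAM1 against MAVS (-0.0085, exact permutation p = 0.9) had overlapping groups and changed sign under some alternatives, with DHX58 against RIGI at 0.10 for a pseudocount of 0.1.

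**Figure D3:**
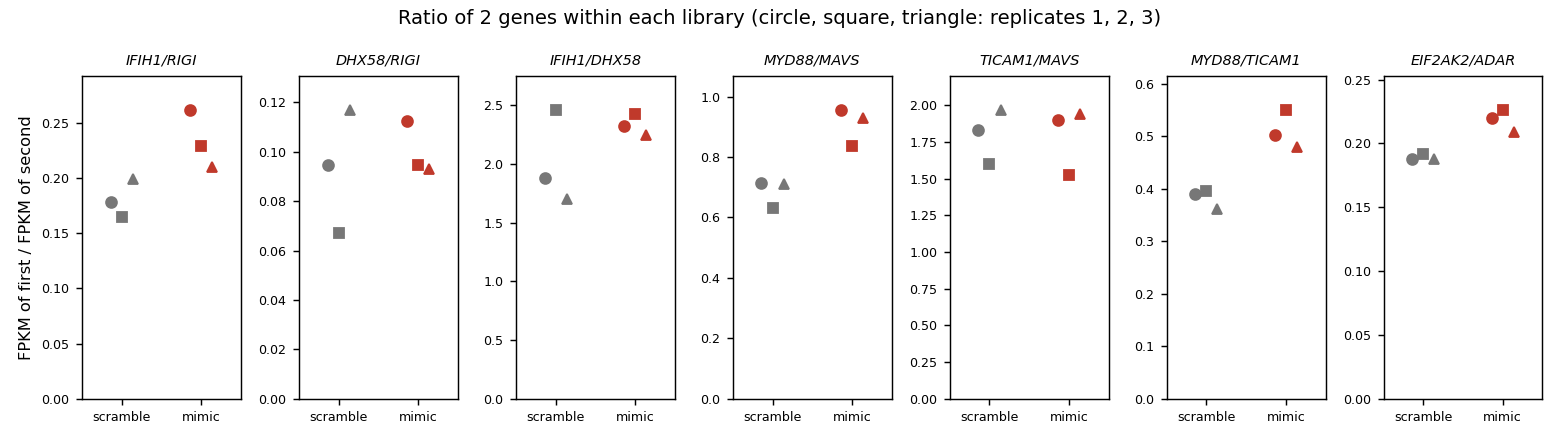
Ratio of the FPKM of 2 genes within each library (vertical axes, each from 0), for 7 pairs. Points are libraries, marked by replicate number. For IFIH1/RIGI, MYD88/MAVS, MYD88/TICAM1 and EIF2AK2/ADAR the 3 mimic points lie above the 3 scramble points.

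By level per length in the scramble libraries the order was ADAR, TICAM1, RIGI, MAVS, EIF2AK2, MYD88, IFIH1, DHX58, TLR3 and ZBP1, from 50.9 down to 0.00467 FPKM. The neighbours RIGI and MAVS overlapped in scramble, as did EIF2AK2 and MYD88, and the other neighbours did not. With mimic RIGI (19.8 FPKM) stood clear of MAVS (14.3 FPKM), and MYD88 (12.9 FPKM) moved past EIF2AK2 (12.3 FPKM) by less than their spread. Among the 9 tested members, scramble replicate 3 was the lowest scramble library in 5, and mimic replicate 1 the lowest mimic library in 5, so no replicate was low throughout.

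Genes around the sensors were read from lists of the pathway's other parts. Among 15 tested regulators of RIG-I-like receptors 3 rose and 2 fell, beside 18.7% and 16.8% of all tested genes. The share that rose, 20.0%, was thus near that of all tested genes, and the median log2 fold change was 0.05. ZCCHC3, a cofactor of RIGI and IFIH1, went from 23.2 to 31.0 FPKM (0.40), and NLRX1, a mitochondrial protein that restrains MAVS, rose by 0.41. TOMM70, which carries the MAVS signal at the outer membrane, went from 19.2 to 16.3 FPKM (-0.22) and PCBP2, which promotes the breakdown of MAVS, fell (-0.17). PCBP2 missed the threshold when mimic replicate 1, mimic replicate 2, scramble replicate 1 or scramble replicate 3 was dropped (highest adjusted p 0.074). CYLD, named after its values were seen, rose by 0.20 and kept its call in the fit that dropped mimic replicate 3 but not when another single library was dropped (highest adjusted p 0.11).

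Further down, 6 of 19 tested genes of the TRAF, kinase and IRF relay rose and 2 fell, beside 18.7% and 16.8% of all tested genes. With 1 library left out 4 to 5 of them rose and 2 fell, and 3 to 6 rose under the other alternatives. IRF7, the interferon regulatory factor that amplifies the response, went from 29.8 ± 2.20 to 43.6 ± 4.07 FPKM (log2 0.53, limma adjusted p = 0.0016), and CASP8 rose by 0.27. TRAF3, which links MAVS and TICAM1 to the kinase TBK1, went from 13.4 to 10.2 FPKM (log2 -0.37, limma adjusted p = 0.0011), and TRAF2 fell likewise (-0.40). TBK1 itself, named after its values were seen, rose by 0.18, and missed the threshold when mimic replicate 2 or 3, or else scramble replicate 1 or 2, was dropped (highest adjusted p 0.11).

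Other Toll-like receptors were few. Of 20 genes of receptors and partners 10 were tested, 3 of them rose and 0 fell, beside 18.7% and 16.8% of all tested genes. The 3 were TOLLIP, an inhibitor (0.39), TLR4 (0.62, from 1.98 to 3.57 FPKM) and TLR6 (0.30). TLR5, TLR7 and TLR8 were at 0 in all libraries, and TICAM2, TIRAP and IRAK3 did not exceed 0.127 FPKM. Of the necroptosis genes downstream of ZBP1, CFLAR (0.37) and CASP8 rose among 5 tested, while RIPK3 had at most 4 reads in a library.

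Around EIF2AK2, 6 of 16 genes rose and 5 fell, beside 18.7% and 16.8% of all tested genes, with a median log2 fold change of 0.0020. PRKRA (PACT), an activator of the kinase, rose by 0.23 and DNAJC3, an inhibitor, by 0.28. ATF4, whose protein is made when eIF2 is phosphorylated, fell from 129.5 to 94.9 FPKM of mRNA (-0.44, limma adjusted p = 0.00021), and PPP1R15A, which recruits the phosphatase of eIF2, fell by 0.22 on the log2 scale. With 1 library left out, 2 to 5 rose and 1 to 4 fell. Dropping scramble replicate 1 or 2 ended the call of PRKRA (highest adjusted p 0.059). For PPP1R15A the same 2 libraries did so, and also mimic replicates 2 and 3, each dropped alone (highest adjusted p 0.067).

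Of 12 other tested proteins that bind double-stranded RNA, 0 rose and 3 fell, beside 18.7% and 16.8% of all tested genes. Without a variance trend, and with voom on recovered reads, 1 of them rose. DROSHA, the nuclease of microRNA processing, fell by 0.20 and the helicase DHX9 fell by 0.18 on the log2 scale. The call of DHX9 ended on the TPM scale, without a filter on low values, and when mimic replicate 1 or 3 or either of scramble replicates 1 and 2 was dropped (highest adjusted p 0.083). Among 7 tested genes of cytosolic DNA sensing IFI16 rose (0.19, adjusted p = 0.055 without scramble replicate 1) and RNASEH2A fell (-0.25).

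Interferon genes themselves were at the floor, while interferon-stimulated genes rose widely. Of 10 interferon genes 0 entered the test, 4 were at 0 in all libraries, IFNB1 had at most 6 reads and IFNL1 at most 13 reads, and the highest value of any was 0.436 FPKM for IFNE. Their summed level was 0.350 to 0.781 FPKM with scramble and 0.275 to 0.653 FPKM with mimic, so the groups overlapped. Of 35 tested interferon-stimulated genes, a list that holds none of the 10 members, 25 rose and 1 fell, with a median log2 fold change of 0.50. Over all tested genes 18.7% rose and 16.8% fell. IFIT2 (1.11) and UBE2L6 (0.66) rose and USP18 fell (-1.09).

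For comparison, 5 of 7 genes of the OAS and RNase L list rose and 1 fell, where 18.7% of all tested genes rose and 16.8% fell. That list had a median of 0.51, led by OAS2 (1.62), OAS1 (0.75) and OASL (0.61). The OAS genes are similar in sequence, which makes single values uncertain. Of 14 tested interferon receptors, JAK kinases and STATs 11 rose and 0 fell, with a median of 0.26, among them JAK1 (0.57), IFNAR1 (0.40) and STAT5B (0.34). The sensors' median of 0.33 lay between those of these lists, and no difference between lists was tested. Lists share genes with one another, so their counts are not independent.

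**Figure D4:**
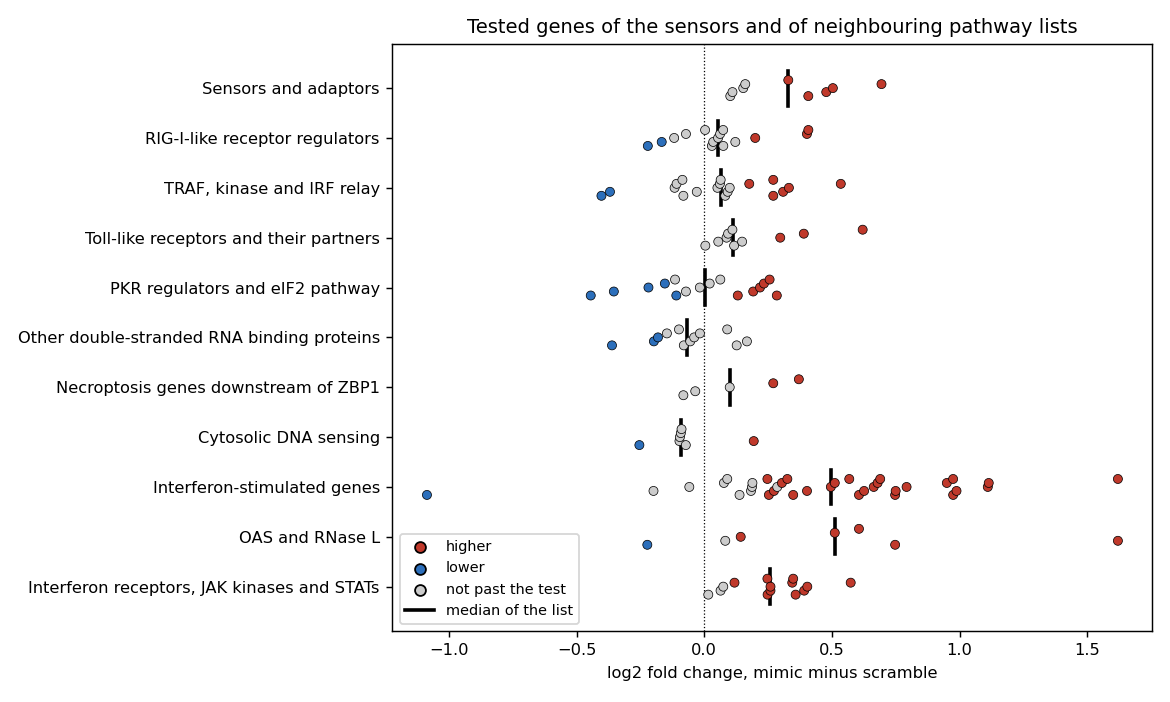
Log2 fold change (horizontal axis, mimic minus scramble) of each tested gene of the sensors and of 10 pathway lists. Red points rose, blue points fell, grey points did not pass the test and black bars are medians of the lists. The bar of the sensors is at 0.33 and that of the interferon-stimulated genes at 0.50.

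As a description of likeness, the 3 genes whose log2(FPKM + 1) followed each called member most closely over the 6 libraries were listed by Pearson's r. For IFIH1 they were ACOT13, KCMF1 and CBX2 (r = 0.9991 to 0.9987), for MYD88 NUDT4, TSTD2 and PPP1R3D, and for RIGI PXDN, C18orf25 and RNF8. For EIF2AK2 they were UHMK1, CD109 and TNRC6A, and for DHX58 IGFBP4 and LDHA beside 1 gene without a symbol. With 6 libraries in 2 groups such values are common: r was above 0.95 with IFIH1 for 948 genes and with EIF2AK2 for 316.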

How the data were processed

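Expression was measured by RNA-seq in 6 libraries, 3 per group, grouped by title. The submitters' processing notes list genome build GRCh38 and, as the authors' tools, DESeq2 1.26.0, featureCounts 2.0.1, HISAT2 2.1.0 and Trimmomatic 0.39. Not given in the sources used here are the annotation release, the strand setting and how FPKM was computed. In the main table the authors deposited FPKM values for 58051 genes and, per the file headers, a filtered table of 401 genes with a mean signal of normalized counts, a log2 fold change, a test score and p-values, used here only to look up members and to check the sign.

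Genes were matched to GENCODE 29 (57447 of 58051). FPKM times exon length gave whole reads, within 0.02, for 96.2% to 96.5% of low values and for 8 of 10 members; reads of IFIH1 and ADAR are approximate. Values were tested as log2(FPKM + 1) with limma 3.58.1 under R 4.3.3, using a mean-variance trend and no covariate, over the 12912 genes averaging 0.5 FPKM or more, with Benjamini-Hochberg adjustment at 0.05. The same code was tested on simulated data with the scramble means and residual spread of 12912 genes, and 50 genes changed at each size. Of the genes changed by 0.25, 0.5 and 1 on the log2 scale it found 18%, 80% and 98%, and 10 of its 158 calls were false. Far fewer genes were changed than the 4584 called in the real contrast, and none as low as TLR3. These rates therefore need not hold for the real contrast. Ratios used exact permutation tests.

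The rule for the members uses no measured value, but the members and lists were chosen with earlier results of these data known. Named genes are the members, up to 4 called genes with the smallest p per list and the 3 most correlated genes per called member. Alternatives covered pseudocount, filter, scaling, variance model, voom on recovered reads, the replicate block and each library left out. The values of 1 list gene are not reported here.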

Additional observations from a re-analysis of the deposited data

How the results depend on the processing

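The number of members that rose was 5, and 4 to 5 with 1 library left out; it was 3 at a filter of 5 FPKM, where only 6 members were tested, and 0 fell under any of the 17 alternatives. Over all genes 4584 passed, against 3290 to 5037 under the alternatives. RIGI (0.42 to 0.59), IFIH1 (0.66 to 0.91), DHX58 (0.34 to 0.67) and MYD88 (0.45 to 0.53) passed, and MAVS, TICAM1 and ADAR did not pass, under every alternative that kept them in the test. TLR3 passed without a variance trend (0.16) and with voom on recovered reads (0.37), and with 1 library left out it gave 0.15 to 0.17. EIF2AK2 lost its call without a filter on low values (0.33), without mimic replicate 2 (0.27) and without mimic replicate 3 (0.34). With 1 library left out it gave 0.25 to 0.39. The log2 ratio of DHX58 to RIGI turned from -0.10 to 0.10 and 0.13 with pseudocounts of 0.1 and 0.01 and was -0.2491 to 0.0391 with 1 library left out. That of TICAM1 to MAVS turned from -0.0085 to 0.0263 after quantile normalization and was -0.0863 to 0.0966 with 1 library left out. The cause was not tested, other than the fewer members under a stricter filter. The labels share replicate numbers but do not say that they pair libraries, so libraries were not paired in the main fit. Same-numbered libraries deviated from their group means with correlations of -0.06, 0.24 and 0.05, and differently numbered ones with -0.27 to 0.23. With so few libraries these values cannot decide whether the numbers mark pairs. With the replicate number as a block 4609 genes passed, 5 members rose, and no member changed its call.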
